A study of Homo sapiens with 8 samples.

Results

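TRIM genes encode the tripartite motif proteins, most of which are RING-type ubiquitin ligases. They were chosen as every gene whose symbol begins with TRIM and a number, and 62 of the 24721 genes in the deposited table met this rule. Where a symbol had several gene models, the model with the highest mean expression rank was used. The libraries came from cultures labelled HepG2, which the labels describe as a human hepatocarcinoma line. The cultures received interferon gamma (IFNg, 200 ng/ml) or hepatocyte growth factor (HGF, 10 ng/ml) overnight, or UV light (0.04 J per square centimetre, then 4 h of recovery), or heat shock (43 °C for 30 min). The recovery is recorded for UV and may also apply to heat shock. Each treatment had 1 library precipitated with an antibody to N6-methyladenosine (m6A) and 1 input library, and no untreated culture was analysed here. With 1 culture per treatment, no difference below has a replicate check and no test was possible.

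TRIM proteins share a RING finger, B-boxes and a coiled coil, and their C-terminal domain decides what they bind. Many members with a C-terminal SPRY domain take part in antiviral defence, and several are known targets of interferons, which act through STAT and IRF transcription factors. Other members repress transcription, regulate the cytoskeleton or act in muscle and neurons. m6A is the most frequent internal modification of mRNA and is known to lie mostly in long exons and near stop codons, within a short motif with the core GGACT.

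Expression was deposited as a rank of each gene model within its treatment, rescaled here to percentiles between 0 and 100. A rank carries no amounts: a higher percentile says only that a gene overtook others, and the depth of the libraries is unknown. In bulk cultures, fewer cells expressing a gene and less RNA per cell cannot be told apart. Whether the rank was taken from the precipitated library, the input or both is not stated. Each treatment had a block of gene models sharing its lowest rank, a floor at 18.4 after IFNg, 20.4 after HGF, 45.5 after UV and 32.7 after heat shock. For comparisons, lower values were raised to the highest of these floors. A gene was called higher or lower after a treatment where its percentile exceeded, or fell short of, each of the other 3 treatments by at least 10 points. Calls were made among genes at percentile 60 or more in any treatment. Hepatocyte markers went against the cell line label. Of 9 such markers, 8 stayed under percentile 60 in all 4 treatments, albumin and alpha-fetoprotein among them, and the other, TTR, reached 76.1 after UV. All 5 leukocyte markers also stayed under percentile 60, as did 4 of 5 fibroblast or endothelial markers. The exception, COL1A1, stood at 80.9 after IFNg, 83.6 after HGF, 64.7 after UV and 60.7 after heat shock. The deposited lists held 5280 peaks after IFNg, 9111 after HGF, 13307 after UV and 9803 after heat shock.

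TRIM genes ranged from the top of the expression order to the floor. Of the 62, 35 passed the filter, 14 stood at percentile 75 or more in all 4 treatments, and 3 stood at 90 or more in all 4. A further 13 lay at or under the highest floor throughout. TRIM43, TRIM48, TRIM49 and TRIM75 were at the floor in every treatment. TRIM43, TRIM48 and TRIM49 have near-identical copies, as do TRIM73 and TRIM74, so their ranks are uncertain, and the 62 include the read-through gene TRIM6-TRIM34. Over all 62 members the median percentile was 55.3 after IFNg, 57.9 after HGF, 60.8 after UV and 59.0 after heat shock, against 51.5 over all genes in each treatment. Members past the filter had medians of 80.7, 75.7, 73.4 and 72.5 in the same order, against 75.8, 75.8, 75.8 and 75.9 over all 12408 genes past it.

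**Figure D1:**
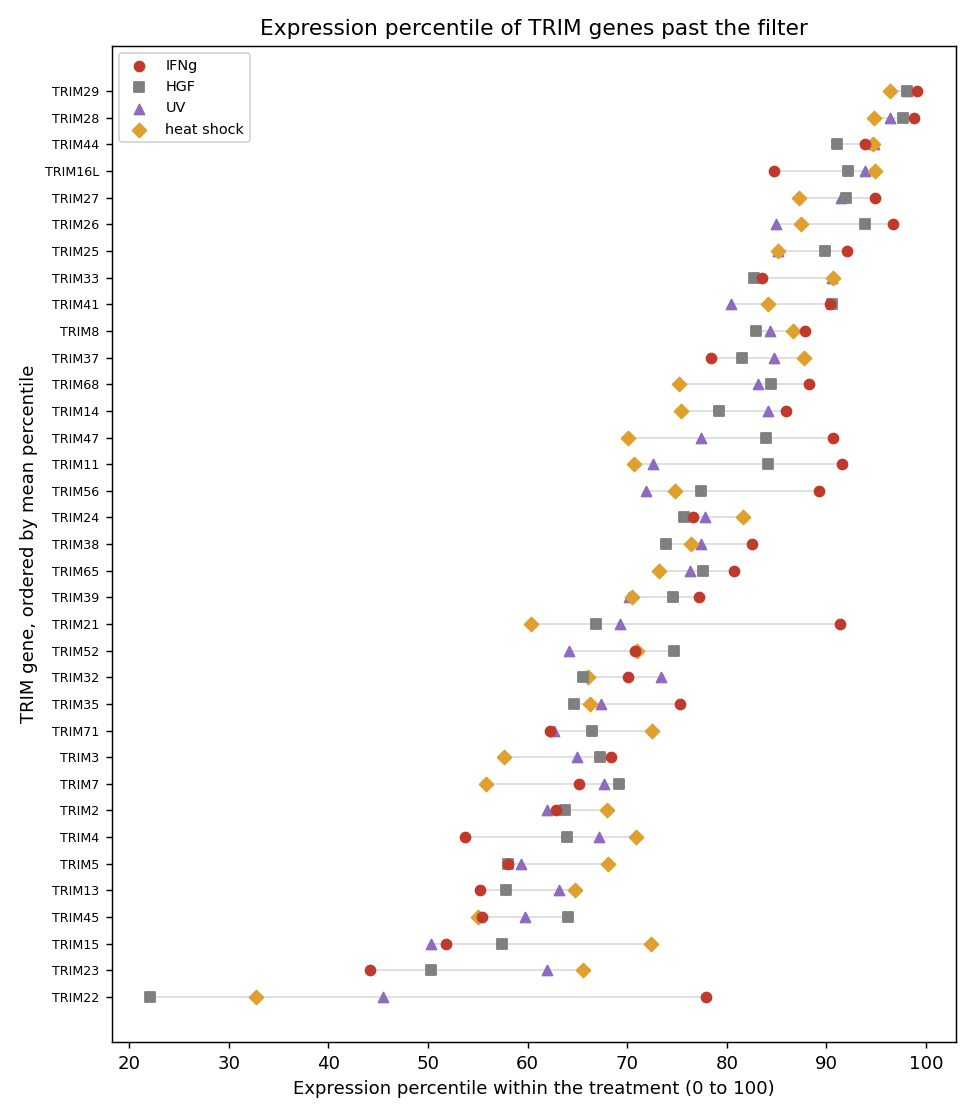
Expression percentile (0 to 100, horizontal axis) of each TRIM gene past the filter after IFNg, HGF, UV and heat shock, with 1 point per treatment and no error since there was 1 culture each. TRIM21, TRIM22 and TRIM56 have an IFNg point that stands 10 or more points to the right of their other points.

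After IFNg, 3 TRIM genes stood higher than after every other treatment by the 10-point limit. All 3 are on the list of known interferon-inducible or antiviral members, called antiviral members below. That list was chosen with earlier results of these data known. They are TRIM21, TRIM22 and TRIM56. They make up 3 of the 35 members past the filter, and 3.34% of all genes past the filter met the same limit. TRIM22 passed the filter through its IFNg value alone, so its place among the 35 and its call rest on the same value. It is also in the counts of members by any size and of antiviral members below. In the other direction 1 of 35 members was called, TRIM4, against 3.01% of all genes.

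TRIM21 (iduc001lyy.1, chromosome 11, 4362703 to 4371502, minus strand) encodes a cytosolic receptor for the Fc part of antibodies, also known as the autoantigen Ro52. Its percentile was 91.3 after IFNg, 66.9 after HGF, 69.2 after UV and 60.4 after heat shock. The IFNg value lay 22.1 points above the nearest other treatment. Gene model coordinates are as deposited, and the sources used here name no genome build for them.

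TRIM22 (iduc001mbr.1, chromosome 11, 5667495 to 5688669, plus strand) encodes an SPRY-domain antiviral protein known for its induction by interferons. Its percentile was 77.9 after IFNg and 22.1 after HGF, and it was at the floor after UV and heat shock. In percentile points it was the member with the widest separation, 32.4 points above the raised floor. On a log2 scale of rank counted from the top, its gap was 1.30, against 1.83 for TRIM21. Ranking only genes above the floor in all 4 treatments leaves TRIM22 out.

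TRIM56 (iduc003uxq.1, chromosome 7, 100515506 to 100520609, plus strand) encodes a ligase without a known C-terminal domain that acts in antiviral signalling. Its percentile was 89.2 after IFNg, 77.4 after HGF, 71.9 after UV and 74.8 after heat shock, a gap of 11.8 points. The IFNg culture stood above the rest, whose values lay close together. After correction for transcript GC content the gap was 8.15 points, under the limit.

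TRIM35 and TRIM11 lay just outside the limit. TRIM35, a SPRY-domain member, had percentiles of 75.3 after IFNg, 64.6 after HGF, 67.4 after UV and 66.3 after heat shock, and a gap of 7.92 points. TRIM11, also a SPRY-domain ligase, had 91.6, 84.2, 72.6 and 70.7 in the same order, a gap of 7.38 points. The called members nearest the limit were TRIM56, 11.8 points, and then TRIM21, 22.1 points, given above. TRIM47 followed with 90.7 after IFNg, 84.0 after HGF, 77.4 after UV and 70.1 after heat shock. For TRIM11 and TRIM47 the HGF culture came nearest to the IFNg culture and the stress cultures were lowest.

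Against HGF alone, the other culture treated with a ligand, 4 of 35 members were at least 10 points higher after IFNg, TRIM35 being added, against 7.3% of all genes, and 1 was that much lower, against 7.16%. Against UV alone 6 of 35 members were that much higher, near the 17.6% of all genes, and 2 that much lower, against 18.0%. Against heat shock alone 8 were higher, near the 21.9% of all genes, and 6 lower, against 22.2%. Smaller separations were counted as well. By any size, 18 of the 35 members stood highest after IFNg, against 25.4% of all genes past the filter, and 7 stood lowest, against 30.4%. This count by any size was chosen after values had been seen. The median shift of members past the filter, each treatment against the median of the other 3, was 3.43 percentile points for IFNg, 0.459 for HGF, 0 for UV and -1.71 for heat shock. Over all genes past the filter it was -0.216, -0.264, 0.255 and 0.461 points.

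**Figure D2:**
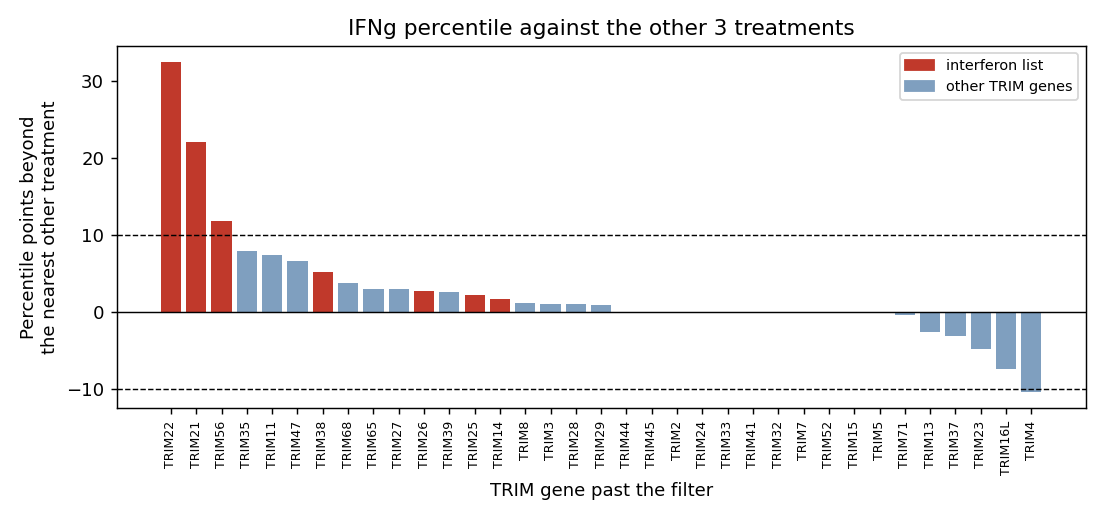
Gap in percentile points between IFNg and the nearest of the other 3 treatments for the TRIM genes past the filter, positive where IFNg is highest and negative where it is lowest. TRIM22 (32.4), TRIM21 (22.1) and TRIM56 (11.8) lie beyond the upper 10-point limit and TRIM4 (-10.3) beyond the lower one.

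Among the known interferon-inducible or antiviral members, 9 of 10 listed genes were in the table and 8 passed the filter, of which the 3 genes above were called higher after IFNg and 0 lower, against 3.34% and 3.01% of all genes. Their median percentile over the 9 was 85.9 after IFNg, 73.9 after HGF, 71.9 after UV and 74.8 after heat shock. TRIM25, which attaches ubiquitin to the RNA sensor RIG-I, had percentiles of 92.0 after IFNg, 89.8 after HGF, 85.2 after UV and 85.2 after heat shock. TRIM26, a SPRY-domain ligase of the MHC region, had 96.7, 93.9, 85.0 and 87.5 in the same order. Both stood highest after IFNg, close to their values after HGF.

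TRIM38, a regulator of innate immune signalling, had percentiles of 82.6 after IFNg, 73.9 after HGF, 77.4 after UV and 76.4 after heat shock. Its gap of 5.17 points became 10.4 points both after GC correction and after ranking only genes above every floor, so those settings call it. Ranking only genes above every floor widened other gaps too, that of TRIM21 from 22.1 to 43.4 points. It called 6.27% of all genes higher after IFNg, against 3.34%, so the wider gap there is no sign of a clearer separation. TRIM14, a SPRY protein without a RING finger that binds the signalling adaptor MAVS, had 85.9, 79.2, 84.1 and 75.4 in the same order, with IFNg and UV close together. The TRIM14 model overlaps the gene NANS on the opposite strand for 13786 nt, and whether the authors counted by strand is not stated.

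TRIM5, which restricts retroviruses by binding their capsid, had percentiles of 58.0 after IFNg, 58.0 after HGF, 59.3 after UV and 68.1 after heat shock. It was the one antiviral member past the filter whose IFNg value was lowest, by a margin too small to be called. TRIM69 did not pass the filter. Its percentile was 41.6 after IFNg, and it was at the floor after HGF, UV and heat shock. Since 41.6 lies under the highest floor, no gap can be given for it.

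Interferons act on promoters through the interferon-stimulated response element (ISRE), and IFNg also through the GAS element. RefSeq promoters on GRCh38.p14, 250 bases before to 50 after the start, were found for 47 of the 62 members. An ISRE core, GAAA then any 2 bases then GAAA, read on both strands, occurred in 7 of these 47 promoters, against 3.65% of all 27305 promoters. Among the 9 antiviral members in the expression table, 8 had a promoter (all but TRIM22) and 5 of these held the ISRE letters. The GAS letters, TTC then any 3 bases then GAA, occurred in 5 of the 47 TRIM promoters, against 7.88% of all promoters, and in 0 of the 8 antiviral ones. TRIM56 held neither, which says only that these letters are not in this window. The promoter windows of the 5 antiviral members follow, read along the strand of the gene, because they set the called member TRIM21 beside members that were not called. Capitals mark the ISRE letters, which appear as TTTC, 2 bases and TTTC where the match is on the other strand, and 2 overlapping matches are marked in TRIM21 and TRIM26.
TRIM21, chr11:4393663-4393692, minus strand: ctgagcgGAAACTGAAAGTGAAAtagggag
TRIM26, chr6:30213578-30213607, minus strand: cgcctgaTTTCAGTTTCCATTTCgctgccc
TRIM14, chr9:98119229-98119258, minus strand: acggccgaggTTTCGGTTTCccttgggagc
TRIM5, chr11:5685082-5685111, minus strand: atagtttatcTTTCACTTTCctgccctgag
TRIM69, chr15:44736456-44736485, plus strand: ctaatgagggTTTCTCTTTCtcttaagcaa
The first marked base lay 18 bases after the start in TRIM21, and 194, 26, 27 and 62 bases before the start in TRIM26, TRIM14, TRIM5 and TRIM69. Overlapping matches make TRIM21 and TRIM26 the members with the longest run of these letters, and their gaps after IFNg were 22.1 and 2.82 points. A match is a description of letters and no binding was measured.

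TRIM4 (iduc003use.1, chromosome 7, 99325972 to 99355090, minus strand), a SPRY-domain ligase, was the single member called lower after IFNg. Its percentile was 53.7 after IFNg, 64.0 after HGF, 67.2 after UV and 70.9 after heat shock, and its gap of -10.3 points lay just past the limit. TRIM16L fell just short of the limit, with 84.8 after IFNg, 92.2 after HGF, 93.9 after UV and 94.8 after heat shock. It is closely related in sequence to TRIM16, so reads could have been shared between them in counting, and its values are uncertain. TRIM23, a member with an ARF-like GTPase domain, was also lowest after IFNg, at 44.2, against 50.3 after HGF, 62.0 after UV and 65.5 after heat shock.

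In the other treatments 1 of 35 members was called. TRIM15 (iduc010jrx.1, chromosome 6, 30238962 to 30248452, plus strand), a SPRY-domain protein of focal adhesions, had a percentile of 72.4 after heat shock, against 51.8 after IFNg, 57.5 after HGF and 50.3 after UV. Its gap was 15.0 points. TRIM15 passed the filter through its heat shock value alone, so its place among the 35 and its call rest on the same value. Of all genes past the filter, 2.83% were called higher after heat shock, so 1 of 35 is near the background, as is the count for TRIM4. No member was called lower after heat shock (3.97% of all genes), higher or lower after HGF (1.56% and 1.37%) or higher or lower after UV (1.81% and 2.07%).

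The chromatin members of the TIF1 group all ranked high and none was called. TRIM28, the corepressor KAP1 that KRAB zinc finger proteins recruit, had percentiles of 98.8 after IFNg, 97.7 after HGF, 96.4 after UV and 94.8 after heat shock. TRIM33, a cofactor in SMAD signalling, had 83.6, 82.7, 90.6 and 90.7 in the same order. TRIM24, a nuclear receptor cofactor, had 76.6, 75.7, 77.8 and 81.6. TRIM28 stood highest after IFNg, whereas TRIM33 and TRIM24 were higher after both stresses than after both ligands. The 6 listed partners of TRIM28, among them the histone methyltransferase SETDB1 and the HP1 proteins, also held no call after any treatment. The HP1 genes CBX1, CBX3 and CBX5 and the partner ATF7IP stood lowest after IFNg by any size, as did 30.4% of all genes past the filter. CBX5 came near the limit, at 80.4 after IFNg against 90.2 after HGF. SETDB1 and CHD3 were not lowest after IFNg.

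The 5 highest members by mean percentile were TRIM29, TRIM28, TRIM44, TRIM16L and TRIM27. TRIM29, an epithelial member without a RING finger, headed the family with 99.1 after IFNg, 98.1 after HGF, 98.1 after UV and 96.4 after heat shock. TRIM44, also without a RING finger, had 93.9, 91.1, 94.8 and 94.7 in the same order. TRIM27, a nuclear SPRY-domain ligase, had 94.9, 92.0, 91.5 and 87.3. None of these was called in any treatment. Near the top of the scale, an equal fold change of rank counted from the top spans fewer percentile points. By a 2-fold difference of rank counted from the top, TRIM29 joined the members called higher after IFNg.

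By C-terminal domain, 19 of 32 SPRY members, all 4 NHL members, all 3 TIF1 members and 5 of 10 members without a known C-terminal domain passed the filter. None of the 8 COS-box members, which bind microtubules or belong to muscle, did so. This count covers only symbols with the TRIM prefix. The family members MID1 and MID2 lie outside it, and both passed the filter. MID1 stood between 72.7 (HGF) and 79.9 (heat shock), and MID2 between 64.6 (HGF) and 77.2 (heat shock). TRIM63, the muscle ligase MuRF1, was at the floor in 3 treatments and at 26.6 after HGF. Among the NHL members, TRIM32, a ligase known from muscle disease, had percentiles of 70.1 after IFNg, 65.6 after HGF, 73.4 after UV and 66.1 after heat shock. TRIM2, a ligase of neurons, had 62.9, 63.8, 61.9 and 68.0 in the same order. TRIM71, the RNA-binding LIN-41 protein of stem cells, had 62.3, 66.5, 62.6 and 72.5. TRIM37, the MATH-domain ligase of peroxisomes and centrioles, had 78.4, 81.6, 84.8 and 87.7. These 4 members showed gaps under the limit in every treatment.

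The m6A lists held 162 peaks in 30 of the 62 TRIM genes, with 25 after IFNg, 39 after HGF, 54 after UV and 44 after heat shock. A larger share of TRIM genes than of all genes carried a peak, in each treatment. Of the 35 members past the filter, 17 had a peak after IFNg, 22 after HGF, 29 after UV and 23 after heat shock, against 28.2%, 42.7%, 55.0% and 44.3% of all genes past the filter. With peaks scored 3 or more alone, 8 members had one after IFNg, 13 after HGF, 26 after UV and 17 after heat shock, against 16.9%, 30.8%, 48.3% and 36.4% of all genes. A peak in all 4 treatments was found in 16 of the 35, against 22.6% of all genes. The order of the treatments by number of peaks was the same in TRIM genes as in the whole lists.

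In each range of expression percentile the members' share with a peak was also above that of all genes. After IFNg, 3 of 6 members at percentile 60 to 75 had a peak (21.9% of all genes), 7 of 13 at 75 to 90 (39.6%) and 7 of 10 at 90 or more (38.3%). After UV the counts were 11 of 14 (54.2%), 10 of 11 (64.2%) and 6 of 6 (68.0%). After HGF they were 8 of 12 (40.8%), 7 of 11 (52.3%) and 6 of 7 (49.2%), and after heat shock 10 of 16 (40.8%), 7 of 10 (52.5%) and 4 of 5 (56.5%). Under percentile 60, 1 of 33 members had a peak after IFNg (1.35% of all genes), 2 of 32 after HGF (4.42%), 3 of 31 after UV (5.74%) and 2 of 31 after heat shock (4.14%). Many of these classes hold few members, so single genes move their shares.

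**Figure D3:**
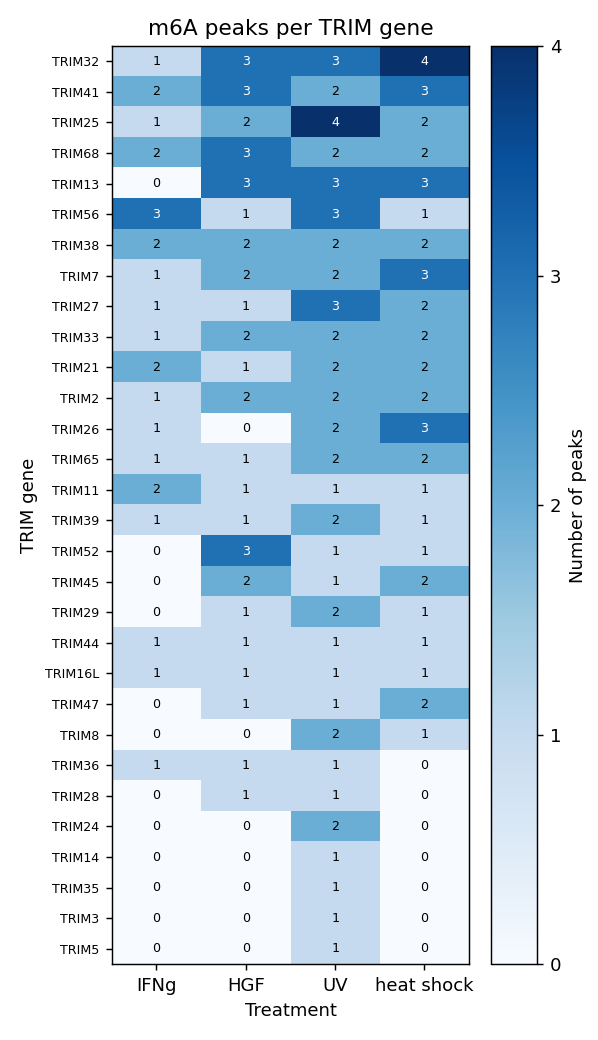
Number of deposited m6A peaks in each TRIM gene with at least 1 peak, by treatment (IFNg, HGF, UV, heat shock). TRIM32 has the most peaks in all (11), and the IFNg column holds 25 peaks against 39, 54 and 44 in the others.

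The 5 members with the most peaks were TRIM32 with 11 over the 4 lists, TRIM41 with 10, and TRIM25, TRIM68 and TRIM13 with 9 each. TRIM41, a SPRY-domain ligase that targets protein kinase C, had 2 peaks after IFNg, 3 after HGF, 2 after UV and 3 after heat shock, at percentiles of 90.4, 90.5, 80.4 and 84.1. Its model overlaps another transcript on the opposite strand along 7380 nt. Likewise, the TRIM32 model overlaps ASTN2 on the opposite strand for 13999 nt, and the TRIM13 model overlaps DLEU2 on the opposite strand for 21461 nt and KCNRG on the same strand for 3214 nt. TRIM68, a SPRY-domain coactivator of the androgen receptor, had 2, 3, 2 and 2 peaks at percentiles of 88.3, 84.5, 83.1 and 75.2. TRIM13, a ligase anchored in the endoplasmic reticulum, had 0 peaks after IFNg and 3 in each other treatment, at percentiles of 55.2, 57.8, 63.1 and 64.8.

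At the other end, 6 members past the filter had no peak in any treatment: TRIM22, TRIM37, TRIM71, TRIM4, TRIM15 and TRIM23. Of the 35 members past the filter 29 had a peak, against 7540 of all 12408 genes past it, so lacking one was more common among all genes. TRIM22 stood higher in rank after IFNg with no peak listed, and the called members TRIM4 and TRIM15 had none either. The remaining called members, TRIM21 and TRIM56, did have peaks. TRIM37 lacked a peak at percentiles of 78.4 to 87.7. A gene absent from a peak list is not shown to be unmethylated. TRIM36, a microtubule-associated COS-box member, was the 1 gene with peaks that did not pass the filter. Its single site near the stop codon was listed after IFNg, HGF and UV, at score ranks of 89.3, 89.9 and 74.9. Score rank is the percentile of the authors' peak score within that treatment's list, where 100 is the highest score.

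More peaks after IFNg than after every other treatment were listed for 1 of the 29 members past the filter with a peak, TRIM11, against 4.18% of all such genes. Fewer after IFNg than after every other treatment were listed for 10 of 29, against 27.6%. TRIM11 had 2 peaks after IFNg and 1 in each other treatment. Its IFNg peaks, at transcript positions 1563 and 1791, both lay in the segment around the stop codon, and the HGF peak at 1567 matched the first of them. After UV and heat shock the peak lay upstream in coding sequence, at 1152 and 1132.

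Of the members raised after IFNg, TRIM21 had 2 sites, both in its last exon of 957 nt. The site near the stop codon was listed in all 4 treatments, at positions 1571 after IFNg, 1575 after HGF, 1603 after UV and 1598 after heat shock. Its score rank was 25.3 after IFNg, 35.0 after HGF, 68.2 after UV and 80.2 after heat shock, so the rank was lowest where the gene's expression rank was highest. Score ranks come from lists of different lengths and show no change in methylation. The coding site was listed at 1204 after IFNg, 1230 after UV and 1196 after heat shock, at score ranks of 73.7, 72.4 and 62.7, and was not listed after HGF.

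TRIM56 had 3 peaks after IFNg, 1 after HGF, 3 after UV and 1 after heat shock, all in its coding exon of 3297 nt, and no site of it was shared by all treatments. The IFNg peaks lay at positions 384, 561 and 1850, at score ranks of 26.6, 11.9 and 3.39, near the bottom of that list. The peak at 561 was matched by a UV peak at 570, and those at 384 and 1850 were listed after IFNg alone. TRIM35 had 1 peak, after UV at position 1250.

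The other antiviral members also carried sites. TRIM25 had 1 peak after IFNg, 2 after HGF, 4 after UV and 2 after heat shock, and its coding site at 1552 to 1585 was listed in all 4. TRIM38 had 2 peaks in every treatment, at the same coding sites of 532 to 560 and 1549 to 1558. TRIM26 had 1, 0, 2 and 3 peaks in the order IFNg, HGF, UV and heat shock, with no HGF peak at its percentile of 93.9. TRIM14 and TRIM5 had 1 peak each, after UV, and TRIM22 and TRIM69 had none.

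When peaks of a gene within 100 nt were joined, the 162 peaks made 75 sites. Of these, 15 (20%) were listed in all 4 treatments, 13 in 3, 16 in 2 and 31 in 1. Over all genes 16.5% of 17667 sites were listed in all 4. The 15 shared sites made up 60% of TRIM sites after IFNg, 38.5% after HGF, 27.8% after UV and 34.1% after heat shock. The same shares over all genes were 55.7%, 32.3%, 22.1% and 30.0%. Of the 75 sites, those listed in 1 treatment alone numbered 4 for IFNg, 7 for HGF, 15 for UV and 5 for heat shock. Over all genes they numbered 926, 1591, 3708 and 896 of 17667 in the same order, which are similar shares.

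**Figure D4:**
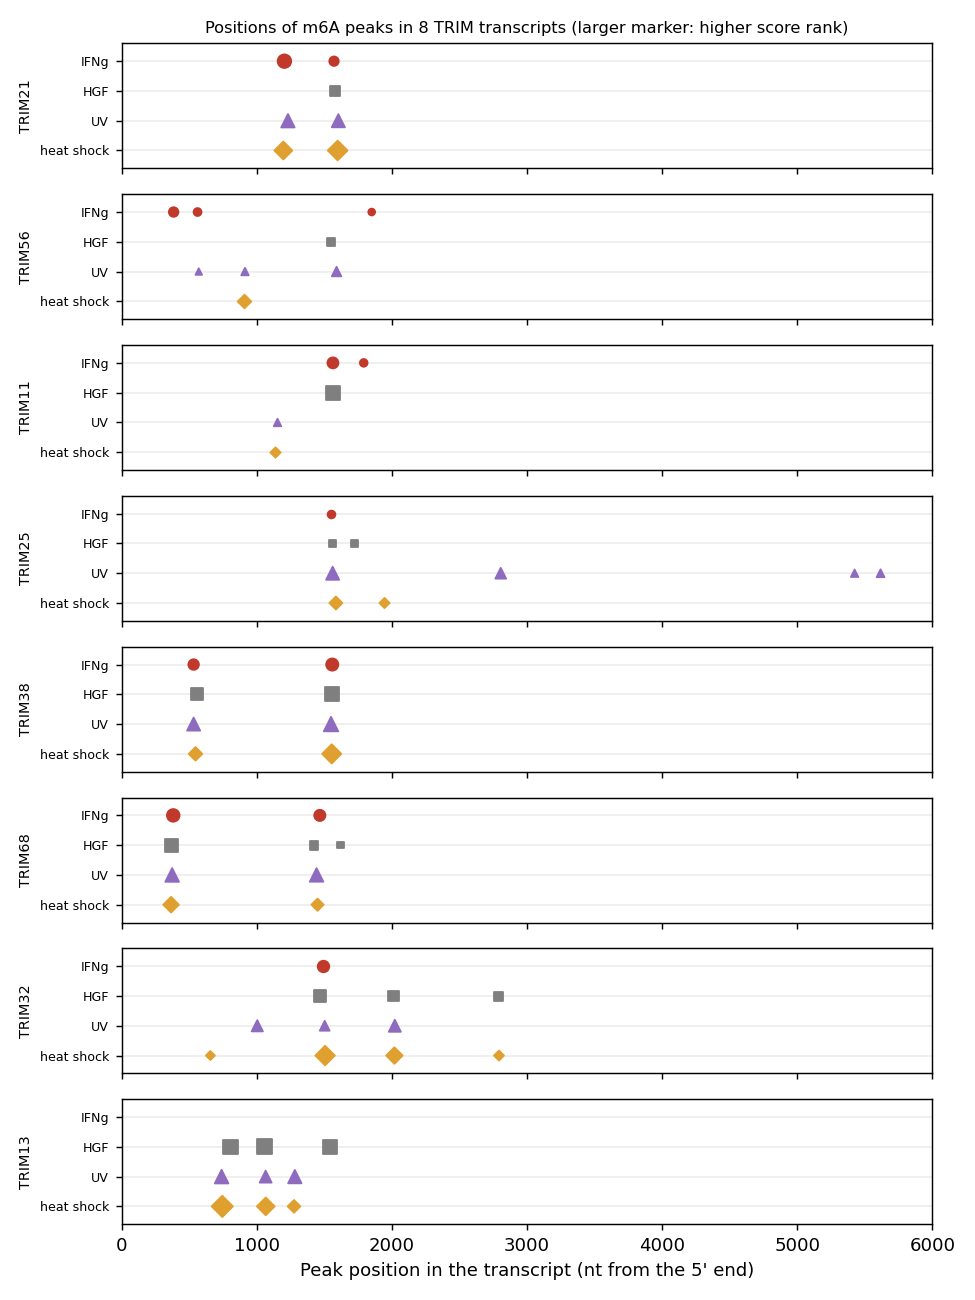
Positions of m6A peaks along the transcripts (distance from the transcript start in nt, horizontal axis) in 8 TRIM genes, with 1 row of points per treatment and larger points for higher score ranks. Points of the 4 treatments fall above each other at shared sites, such as TRIM38 near 532 to 560 and 1549 to 1558.

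The 15 shared sites lay in 12 genes, of which TRIM68, TRIM41 and TRIM38 had a pair each. Of these sites 10 were in coding sequence, 3 around the stop codon and 2 in the 3' UTR. The site of TRIM27 at 1570 to 1614 stood high in every list, with score ranks of 93.3 after IFNg, 89.6 after HGF, 85.1 after UV and 70.3 after heat shock. The TRIM41 site at 1074 to 1085 had score ranks of 91.4, 78.2, 92.8 and 60.1 in the same order. At the other extreme, the TRIM25 site had score ranks of 10.9, 8.17, 67.7 and 23.7. High and low score ranks were both found among shared sites.

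Other shared sites lay in members of varied roles. TRIM33 had one at 3372 to 3397 around its stop codon, TRIM2 one at 1268 to 1306 in coding sequence, and TRIM32 one at 1464 to 1505 in coding sequence. TRIM39, a SPRY-domain regulator of apoptosis and the cell cycle, had one at 1766 to 1774 in coding sequence. TRIM65, a SPRY-domain ligase that modifies the RNA sensor MDA5, had one at 1877 to 1912 in its 3' UTR, and TRIM7, a ligase that binds glycogenin, one at 2164 to 2180 in its 3' UTR. TRIM68 had its pair at 365 to 381 and 1422 to 1466, both in coding sequence, and TRIM41 its second at 2416 to 2434 around the stop codon. TRIM44, TRIM16L, TRIM11 and TRIM56 had a peak in every treatment but no site listed in all 4.

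Coding sequence held the largest share of TRIM peaks in every treatment. The share was 60% after IFNg (exact 95% interval 38.7 to 78.9), 48.7% after HGF (interval 32.4 to 65.2), 55.6% after UV (interval 41.4 to 69.1) and 59.1% after heat shock (interval 43.2 to 73.7). Over all genes it was 47.9%, 44.5%, 39.1% and 40.9%. The all-gene share lay below the interval after UV and heat shock and within it after IFNg and HGF. Intervals cover counting error only, and peaks of 1 gene are not independent. The segment around the stop codon held 28.0%, 33.3%, 20.4% and 22.7% of TRIM peaks in the same order of treatments, against 28.997%, 29.5%, 27.2% and 27.3% of all peaks.

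Peaks at the transcript start were few in TRIM genes. They were 0 of 25 after IFNg, 0 of 39 after HGF, 3.70% after UV and 2.27% after heat shock, against 1.21%, 3.86%, 9.51% and 8.48% of all peaks. The upper bounds of the exact intervals were 13.7%, 9.03%, 12.7% and 12.02%, above the all-gene share in every treatment. Within each treatment these counts therefore cannot be told apart from the all-gene shares. Over the 4 lists together the share was 1.85% (interval 0.38 to 5.32), against 6.69% of all peaks, which lies above the interval. The same sites recur between lists, so these peaks are not independent. The start peaks were those of TRIM44, after UV and heat shock, and of TRIM8, a regulator of cytokine signalling, after UV.

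**Figure D5:**
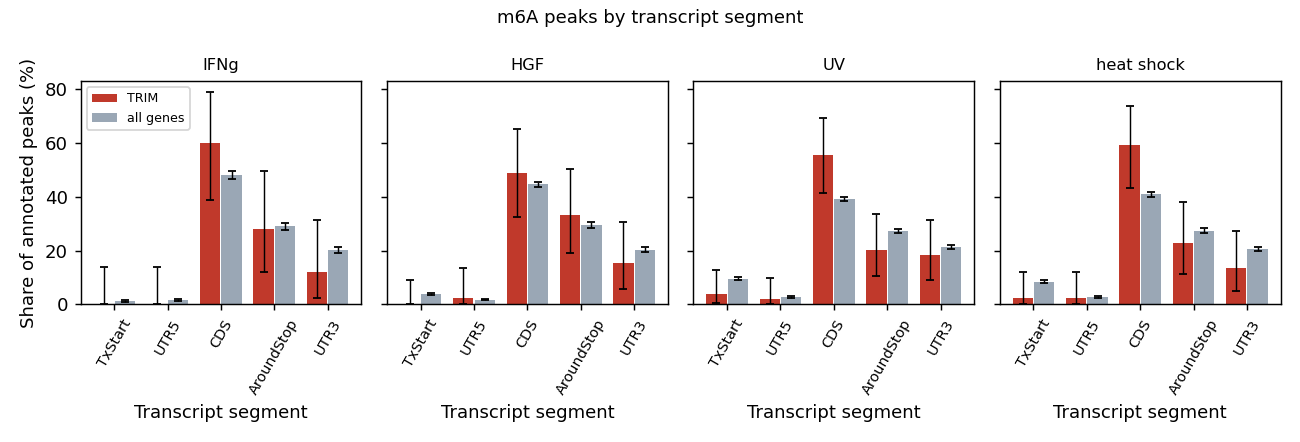
Share of annotated m6A peaks (%, vertical axis) in each deposited transcript segment for TRIM genes and all genes, with 1 panel per treatment and exact 95% intervals that cover counting error only. Coding sequence is the tallest TRIM bar in every panel, at 60%, 48.7%, 55.6% and 59.1%.

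TRIM peaks lay almost throughout in long exons. Of the 162 peaks, 160 (98.8%) were in an exon of 400 nt or more, against 87.9% of all peaks. The exceptions were both peaks of TRIM28, in its exons 12 and 15 of 253 and 87 nt, listed after UV and HGF. The median length of the exon with the peak was 1754 nt in TRIM genes and 1495 nt over all genes. For 20 genes the deposited exons matched a GENCODE 29 transcript, and 34 of their 48 sites (70.8%) lay in the last coding exon, which made up 54.2% of the transcripts' length. A further 5 sites lay in the only coding exon of TRIM32. First coding exons held 4 sites, internal coding exons 4 and exons before the first coding exon 1.

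For 15 of these genes the match was close enough to read sequence at the sites. The motif GGACT, read on the transcript strand, was found within 100 nt of 18 of 37 sites (48.6%). It was found in 17.0% of all 53576 windows of 201 nt in the same transcripts. Of the 8 sites listed in all 4 treatments, 4 held it. Sequences around the nearest GGACT are given for those 4 sites and for sites listed in 3 treatments in TRIM32 and the antiviral member TRIM26, because they show which base could carry the modification at repeatedly listed sites. They are from GENCODE 29, capitals mark the motif, and its A is the base that m6A would occupy.
TRIM33: aggtaactgaGGACTctgatgaaga
TRIM39: gtgtatgccgGGACTccgtgagccg
TRIM27: ggattttcttGGACTatgatgctgg
TRIM2: agaaggaaggGGACTttaccctgtc
TRIM32: tattcgagagGGACTtacctgtccg
TRIM26: agctgtcagaGGACTggaagtgcgt
The A lay 11 nt from the middle of the site in TRIM33, 27 nt in TRIM39, 87 nt in TRIM27, 58 nt in TRIM2, 10 nt in TRIM32 and 43 nt in TRIM26. The TRIM33 match is therefore close to its site and the TRIM27 match near the edge of the window. No GGACT lay within 100 nt of either site of TRIM21 or of the TRIM25 site listed in all 4 treatments. The deposited positions do not say whether they are a peak's start or its centre, and other forms of the m6A motif were not searched.

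Genes that work with TRIM proteins gave the setting. Of 4 family members whose symbols lack the prefix, 3 passed the filter, and PML, the organiser of nuclear bodies, was called higher after IFNg, at 89.6 against 75.5 after HGF, 51.7 after UV and 58.6 after heat shock. Of 12 listed antiviral signalling genes 11 were in the table, and 6 were called higher after IFNg and 0 lower: STAT2, IRF1, IRF7, IRF9, IFIH1 and UBE2L6. Of all genes past the filter, 3.34% were called higher after IFNg and 3.01% lower. UBE2L6 passed the filter through its IFNg value alone. IRF1, a transcription factor that acts early in the IFNg response, stood at 98.8 after IFNg, 62.2 after HGF, 68.7 after UV and 57.7 after heat shock. Of the 9 ubiquitin-conjugating enzymes on the list of partners, 0 were called after IFNg. These lists were chosen with earlier results of the same data known.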

How the data were processed

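Expression and m6A peaks came from 1 deposited table of 25918 gene models. Per the file headers, it gives for each treatment an expression quantile, a fraction from 0 to 1 that the authors computed within the treatment, multiplied here by 100. It also gives, per the file headers, the authors' number of peaks and, for each peak, a score, a segment, a position in the transcript and the number and length of its exon. The sources used here give neither the score's formula nor its log base, and no score is under 2, so scores were used only as ranks within a list. The aligner, peak caller and genome build are not given in the sources used here. PolyA-selected RNA was, per the labels' protocols, cut to fragments of about 100 nt and sequenced from random-primed cDNA. Depth is unknown.

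The members and lists were chosen with earlier results of these data known. Named genes were the called members, those with peaks in all 4 treatments, the antiviral and TIF1 members, the 5 with most peaks, the 5 highest, and 2 on each side of the 10-point limit. TRIM23, TRIM36, TRIM37, TRIM47, TRIM63, TRIM71 and TRIM8 were chosen after their values were seen, as were the values given for related genes. Counts of members called are set against the share of all genes called by the same rule. Alternatives covered the floors, the limit, the filter, the model used per gene, a log2 scale of rank, GC content (40 bins, GENCODE 29 transcripts, available for 35 of 35 members past the filter), the treatment compared, a score minimum of 3 and joining distances.

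A GENCODE 29 transcript matched where peaks' exons had the same number, a length within 10 nt and a span within 60 nt, or within 10 nt for sequences. Promoters are from RefSeq. TRIM34 and TRIM66, on the antiviral and TIF1 lists, were not analysed here under those symbols. A gene on the antiviral signalling list is not reported here. The tools were matplotlib 3.10.9, SciPy 1.17.1, NumPy 2.4.6 and pandas 2.3.3 under Python 3.11.15, and the calling and site-joining steps were tested on simulated data.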

Additional observations from a re-analysis of the deposited data

How the results depend on the processing

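No paired analysis was possible because each treatment had 1 culture and no result came from a test. Of the alternatives, 77 values for counts and shares stayed close to those reported and 24 did not. Many of the 77 are counts of 0 that stayed 0, which a stricter limit or filter could not raise. A change from 3 to 2 was taken as close, so the tally is no measure of stability. The share of all genes called under the same setting is given in brackets. The 3 members called higher after IFNg (3.34%) became 6 when genes above every floor were ranked again (6.27%), 7 at a limit of 5 points (8.12%), 6 against UV alone (17.6%) and 8 against heat shock alone (21.9%). TRIM21 was called under each of the rankings and limits tried, and TRIM22 under each except the repeated ranking, which leaves it out. The 1 member called lower after IFNg (3.01%) became 2 with the repeated ranking (8.63%), 2 at 5 points (11.0%), 2 against UV alone (18.0%) and 6 against heat shock alone (22.2%). It became 0 at 20 points (0.218%), at a minimum percentile of 75 (2.86%) and by a 2-fold difference of rank (0.733%). For heat shock, the 1 higher call (2.83%) became 3 with the repeated ranking (7.79%), 3 at 5 points (9.41%), 0 at 20 points (0.338%), 0 at the minimum of 75 (1.48%) and 0 by 2-fold rank (0.798%). The 0 lower calls (3.97%) became 5 with the repeated ranking (9.34%) and 5 at 5 points (11.0%). The 0 lower calls after UV (2.07%) became 1 with the repeated ranking (4.05%) and 1 at 5 points (5.35%), and the 0 after HGF (1.37%) became 1, TRIM22, with floors as deposited (3.09%). With a score of 3 or more, members with a peak, past the filter or not, numbered 9 after IFNg, against 18 with all peaks, and 14 after HGF, against 23. The cause was not tested. The gap of TRIM56 after IFNg was 8.15 points after GC correction, and on the log2 scale of rank that of TRIM4 was -0.36 and that of TRIM15 after heat shock 0.63, short of the limit.

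Over all genes, 52.6% of calls after IFNg were higher, against 39.6% with floors as deposited, 42.1% with the repeated ranking, 42.4% at 5 points, 82.1% at 20 points and 75.7% by 2-fold rank. The count of members highest or lowest after IFNg by any size, with its alternatives, was added after the data were seen. With GC correction 17 were highest (22.6% of all genes) and 8 lowest (32.3%), and 13 were lower than after HGF alone (52.1%), against 7 lower than after every treatment (30.4%). Ranks hide changes in amount, and members near a floor cannot be compared.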
